A study of Mus musculus with 4 samples.

Results

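The Krüppel-like factors are zinc-finger transcription factors that bind CACCC and GC-rich elements of promoters. The 10 genes described here, Klf2, Klf3, Klf4, Klf6, Klf7, Klf9, Klf10, Klf11, Klf13 and Klf16, were taken by symbol from a table of 54532 mouse genes. All 10 were among the 13186 genes that passed the low-count filter. The cells were bone marrow-derived macrophages, grown for 7 days in medium that contained L929-conditioned medium as the source of macrophage colony-stimulating factor. They were then transfected for 24 h with miR-204-3p mimics (2 libraries) or with the mimics negative control (2 libraries). A mimic is a synthetic duplex that acts as a microRNA, and the series was made to compare mRNA levels between these conditions. The labels give no strain, sex or age of the mice, and untransfected cells were not analysed here. Whether both libraries of a condition are separate mice or dishes is not stated, so every p-value reflects the spread among these 4 libraries alone, which may be technical.

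Members of the family share their C-terminal zinc fingers and differ in the N-terminal part that recruits partners. Klf2, Klf4, Klf6 and Klf7 belong to the branch with activation domains, although Klf4 also represses. Klf3 recruits the corepressor CtBP, and Klf9, Klf10, Klf11, Klf13 and Klf16 bind the corepressor Sin3. In macrophages Klf2 is known as a brake on inflammatory activation, Klf4 as a factor of monocyte differentiation and of the response to IL-4, and Klf6 as a factor that promotes inflammatory gene expression.

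The mature microRNA and its matches in the family are shown first, since the compared groups differ in this microRNA. The sequence below is that of RefSeq (GRCm38.p6, chr19:22750649-22750669, plus strand), with the seed, bases 2 to 8, in capitals.
miR-204-3p: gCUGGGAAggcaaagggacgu
The complement of this seed, TTCCCAG, was searched in the longest annotated 3′ UTR of each member (GENCODE vM21, GRCm38), and 3 of 10 members held it. Of 11270 tested coding genes with an annotated 3′ UTR, 22.5% did. Klf4 held 1 match, Klf7 held 4 and Klf13 held 2, of which 1 was the longer form TTCCCAGA, found in 6.2% of these genes. The matches are given 5′ to 3′ along the transcript, with the match in capitals. A 7mer-m8 match pairs with the seed, and an 8mer has an A after it as well. All lie on the minus strand of the genome.
Klf4, 7mer-m8, chr4:55527984-55528012: caatcatggtcaagTTCCCAGcaagtcag
Klf7, 7mer-m8, chr1:64033051-64033079: ggtttgtttctctcTTCCCAGtctgtagc
Klf7, 7mer-m8, chr1:64030253-64030281: tgtttcctttttgcTTCCCAGcatgcatt
Klf7, 7mer-m8, chr1:64030021-64030049: ctcccaacacatacTTCCCAGctacccac
Klf7, 7mer-m8, chr1:64029973-64030001: tcccaacacatgacTTCCCAGccaccatg
Klf13, 8mer, chr7:63888724-63888752: tcgaagatgcagtcTTCCCAGAcccgggt
Klf13, 7mer-m8, chr7:63886635-63886663: ccatttccagcagcTTCCCAGttcccttt
The 3′ UTRs with a match had lengths of 982 bases (Klf4), 6266 bases (Klf7) and 5157 bases (Klf13), against a median of 1133 bases over the 11270 genes. Their mRNA levels moved in different directions, as given below: Klf4 and Klf7 were higher and Klf13 was lower with the miR-204-3p mimic. The 7 members with no match included Klf9, which was lower, and Klf2, Klf6 and Klf11, which were higher. A match is a string of letters in the annotated UTR, and binding of the microRNA was not measured.

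With the miR-204-3p mimic, Klf2, Klf4, Klf6, Klf7, Klf11 and Klf3 rose, Klf9 and Klf13 fell, and Klf10 and Klf16 did not pass the test (quasi-likelihood test of edgeR, with p adjusted by Benjamini-Hochberg over all 13186 tested genes, threshold 0.05). The 8 of 10 members past the threshold compare with 60.8% of all tested genes. The 6 higher members compare with 31.1% of tested genes called higher, and the 2 lower members with 29.7% called lower. A change of at least 2-fold that passed the test was seen in 6 of 10 members and in 31.7% of tested genes. All 10 members had groups that did not overlap, as had 80.7% of tested genes. The median log2 fold change was 0.79 over the 10 members and 0.04 over all tested genes. Log2 fold changes put the miR-204-3p mimic over the control. Levels are CPM, the read counts of a gene relative to the library total, with that total scaled by the trimmed mean of M-values (TMM), and mean ± SD is over the 2 libraries of a group. In these bulk samples fewer cells of a type and less RNA per cell cannot be told apart, and macrophage markers were lower with the mimic, in 6 of 7 cases.

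**Figure D1:**
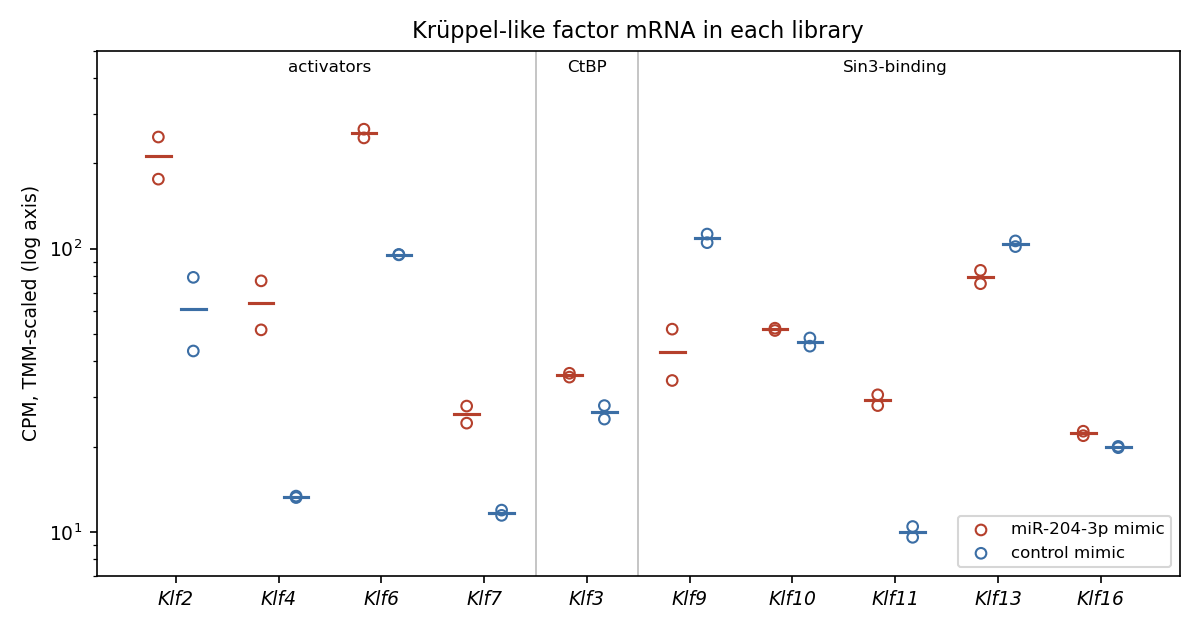
CPM (log axis) of each gene in the 4 libraries, with miR-204-3p mimic libraries left of control mimic libraries. Circles are libraries and bars are means. Genes run from the activators through the CtBP-binding Klf3 to the Sin3-binding members, and Klf4 shows the widest gap between groups, 64.3 against 13.3 CPM.

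The miR-204-3p mimic libraries held 16837826 and 16295262 counts, and the control mimic libraries 16446212 and 15899235. A count of 0 allowed up to 3 counts, or 0.178 to 0.189 CPM, and this floor covers counting error only. The TMM factors were 1.14 and 1.13 in the mimic libraries and 0.878 and 0.886 in the control libraries, so directions are relative to this scaling. With no TMM factors, that is with library size only, the median over all tested genes was 0.40 in place of 0.04, and 71.0% in place of 51.1% of called genes were higher. Replicates of a gene with a mean of at least 100 counts in the group differed by a median of 0.161 (mimic) and 0.14 (control) on the log2 scale.

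All 4 activators rose, where 31.1% of all tested genes were called higher, and the branch was not tested against the other members. Gene positions are those of the deposited table, on mm10. Klf4 (ENSMUSG00000003032, chr4:55527143-55532466, minus strand), which directs monocyte differentiation, had 77.0 and 51.7 CPM in the mimic libraries and 13.4 and 13.2 CPM in the control libraries. The control libraries lay close together and the mimic libraries lay apart, yet the lower mimic library was still far above both controls. The difference was 4.84-fold, a log2 fold change of 2.28 ± 0.19 (standard error, edgeR adjusted p = 1.9e-07), the largest among the 10 members.

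Klf2 (ENSMUSG00000055148, chr8:72319033-72321656, plus strand), which keeps endothelial cells, T cells and monocytes quiescent, had 248 and 176 CPM with the miR-204-3p mimic and 43.5 and 79.2 CPM with the control mimic. The groups did not overlap, but Klf2 had the least even control libraries of the 10 members, which differed by 0.864 on the log2 scale. The control libraries of 9471 genes with a mean of at least 100 counts differed by up to 0.476 at the 95th percentile. The log2 fold change of Klf2 was 1.79 ± 0.23 (edgeR adjusted p = 1.0e-05), and leaving out single libraries gave 1.41 to 2.27.

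Klf6 (ENSMUSG00000000078, chr13:5861482-5870394, plus strand), an immediate early factor first described in liver stellate cells and placenta, had 264 and 246 CPM in the mimic libraries and 95.4 and 95.1 CPM in the control libraries. The replicates of either group were nearly equal, and the groups were far apart. The log2 fold change was 1.42 ± 0.12 (edgeR adjusted p = 2.7e-07). Klf7 (ENSMUSG00000025959, chr1:64029447-64122282, minus strand), which is broadly expressed and known for its role in neurons, had 27.8 and 24.2 CPM in the mimic libraries and 11.4 and 11.9 CPM in the control libraries. It rose by 1.15 ± 0.18 on the log2 scale (edgeR adjusted p = 7.0e-05), and it held the most seed matches of the 10 members. Of the 50-mers of Klf7, 38.2% also occur in Gm26649, a noncoding gene on the opposite strand over its 3′ end. Gm26649 had 0 counts in all 4 libraries, and the strand setting of the counting is not given in the sources used here.

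Klf3 (ENSMUSG00000029178, chr5:64803388-64832901, plus strand), the founding CtBP-binding repressor of the family, had 35.2 and 36.3 CPM in the mimic libraries and 25 and 27.9 CPM in the control libraries. The groups were separate but close, with a log2 fold change of 0.43 ± 0.15 (edgeR adjusted p = 0.023). This call was lost with DESeq2 (adjusted p = 0.056), with gene-length offsets (0.43, at a log2 fold change of 0.15), without control replicate 1 (0.18) and without mimic replicate 2 (0.078).

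The Sin3-binding members went in different directions, with 1 higher, 2 lower and 2 that did not pass. Klf11 (ENSMUSG00000020653, chr12:24651274-24662789, plus strand), a TGF-beta-inducible gene, had 27.9 and 30.5 CPM in the mimic libraries and 9.56 and 10.4 CPM in the control libraries. Its libraries were even within each group, and it rose 2.92-fold, a log2 fold change of 1.55 ± 0.18 (edgeR adjusted p = 4.2e-06). Klf10 (ENSMUSG00000037465, chr15:38291463-38300706, minus strand), its close relative and the other TGF-beta-inducible early gene, had 51.4 and 52.4 CPM in the mimic libraries and 45.3 and 48.4 CPM in the control libraries. The mimic libraries were slightly higher, and the difference, 0.15 ± 0.14 on the log2 scale, did not pass the test (edgeR adjusted p = 0.36).

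Klf9 (ENSMUSG00000033863, chr19:23141226-23166911, plus strand), a gene that glucocorticoids and thyroid hormone induce, had 52.0 and 34.2 CPM in the mimic libraries and 113 and 105 CPM in the control libraries. Both mimic libraries were well under the controls, and they differed from each other by 0.602 on the log2 scale, the widest replicate gap of the members in that group. Klf9 fell by 1.33 ± 0.17 on the log2 scale (edgeR adjusted p = 1.0e-05), which is 2.52-fold lower with the mimic. Klf13 (ENSMUSG00000052040, chr7:63886351-63938915, minus strand), known as a late activator of the chemokine gene Ccl5 in T cells, had 83.8 and 75.2 CPM in the mimic libraries and 107 and 102 CPM in the control libraries. It fell by 0.39 ± 0.12 on the log2 scale (edgeR adjusted p = 0.014).

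The call of Klf13 depended on the scaling. With library size alone its log2 fold change was −0.02 (edgeR adjusted p = 0.88), and its call was also lost without control replicate 1 (adjusted p = 0.07) and without mimic replicate 2 (adjusted p = 0.058). Klf16 (ENSMUSG00000035397, chr10:80567124-80577321, minus strand), a GC-box-binding repressor first described in the brain, had 22.7 and 21.9 CPM in the mimic libraries and 19.8 and 20.03 CPM in the control libraries, a log2 fold change of 0.16 ± 0.17 (edgeR adjusted p = 0.42). With library size alone Klf10 and Klf16 were called higher, with log2 fold changes of 0.51 and 0.52 (edgeR adjusted p = 0.0044 and 0.013). Under that scaling 8 of 10 members were higher, as were 46.6% of tested genes. Against a minimum change of 1.5-fold, 6 of 10 members passed (Klf2, Klf4, Klf6, Klf7, Klf9 and Klf11), as did 33.9% of tested genes.

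**Figure D2:**
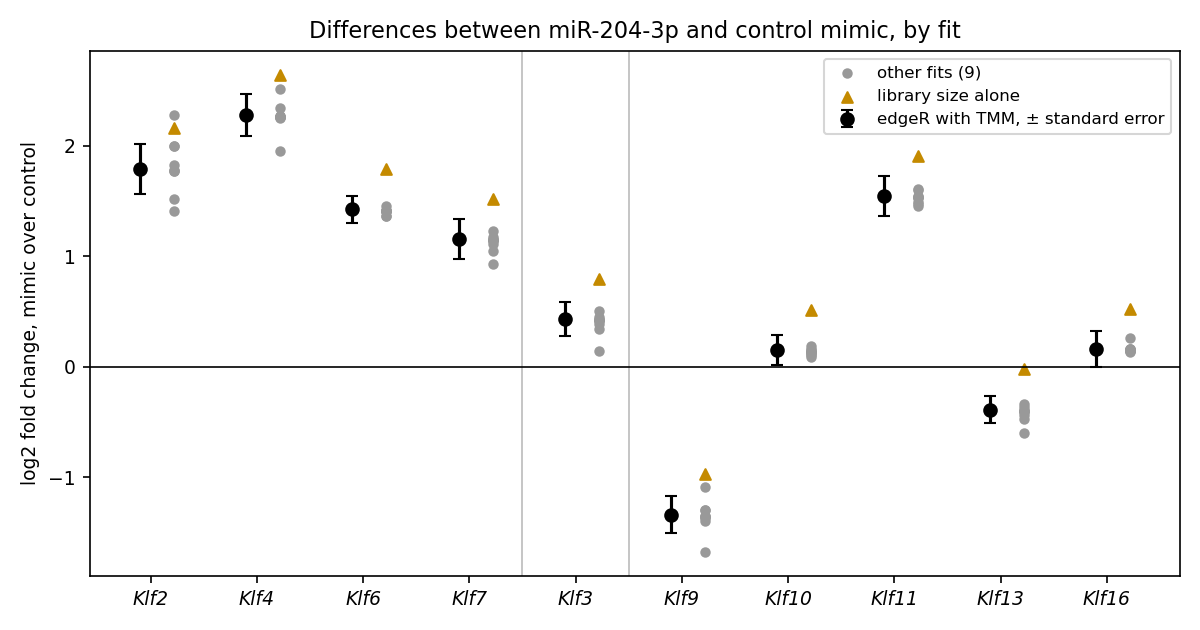
Log2 fold change of miR-204-3p mimic over control mimic for each gene. Black points with bars are the edgeR fit with TMM scaling and its standard error, triangles are library size alone, and grey points are the 9 other fits. The points of Klf2, Klf4, Klf6, Klf7 and Klf11 lie above 0 and those of Klf9 below 0 in the fits shown, and Klf13 reaches −0.02 with library size alone.

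Among all tested genes the members were not at the extremes. The absolute log2 fold change of Klf4 exceeded that of 90.5% of tested genes, that of Klf2 85.6% and that of Klf11 81.7%. Klf9 exceeded 77.2% of tested genes, while Klf10 and Klf16 exceeded 13% and 14.1%.

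**Figure D3:**
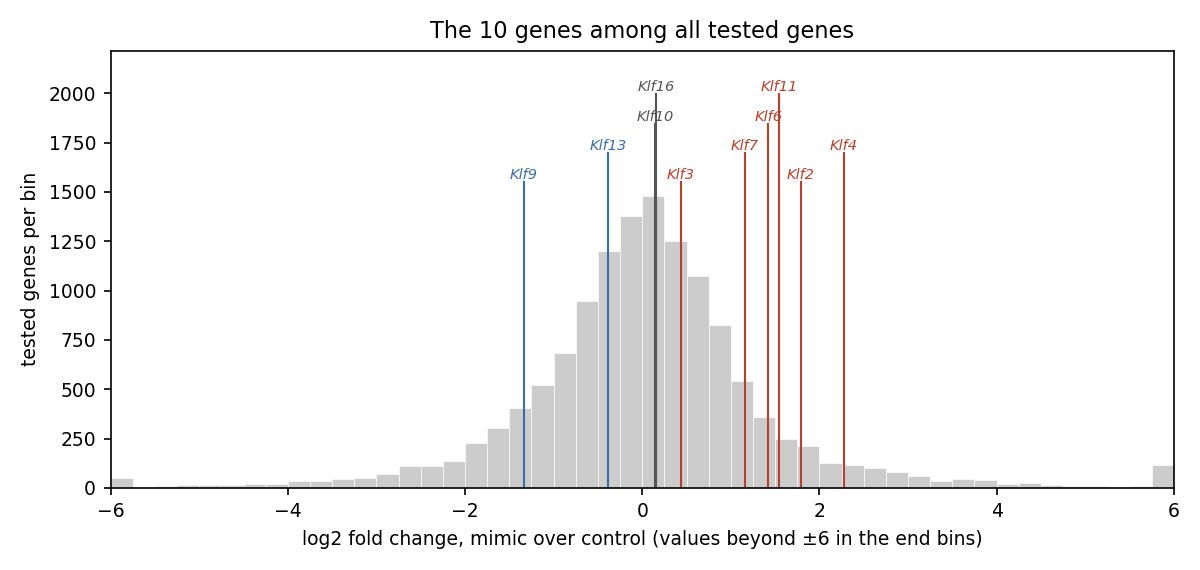
Number of tested genes per bin of log2 fold change, mimic over control, with a line for each of the 10 members (red for higher, blue for lower, grey for not past the threshold). Of the 10 members Klf4 at 2.28 lies farthest right and Klf9 at −1.33 farthest left, and the end bins hold the genes beyond ±6.

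Levels of different genes are compared per kilobase of the gene model given in the table, as CPM per kilobase. With the miR-204-3p mimic the order was Klf2 (115 ± 27.5), Klf6 (58.1 ± 2.91), Klf4 (21.1 ± 5.86), Klf9 (13.2 ± 3.85), Klf10 (12.4 ± 0.163), Klf13 (10.6 ± 0.808), Klf16 (8.32 ± 0.213), Klf11 (6.72 ± 0.417), Klf7 (3.2 ± 0.313) and Klf3 (3.18 ± 0.07). With the control mimic it was Klf9 (33.3 ± 1.64), Klf2 (33.2 ± 13.7), Klf6 (21.7 ± 0.0495), Klf13 (13.8 ± 0.453), Klf10 (11.2 ± 0.523), Klf16 (7.45 ± 0.0559), Klf4 (4.36 ± 0.0375), Klf3 (2.35 ± 0.182), Klf11 (2.3 ± 0.144) and Klf7 (1.44 ± 0.0431). The libraries of Klf9 overlapped those of Klf10 with the mimic and those of Klf2 with the control, and those of Klf3 overlapped Klf7 with the mimic and Klf11 with the control. All other neighbours in each order were separate in the 2 libraries of the group.

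Klf4 held rank 3 in both mimic libraries and rank 7 in both control libraries. By group mean Klf9 had rank 4 with the mimic and rank 1 with the control. In single libraries its ranks were 4 and 5 with the mimic and 1 and 2 with the control. The ratio of Klf4 to Klf9 per kilobase was 1.58 and 1.62 in the mimic libraries and 0.127 and 0.135 in the control libraries. The 4 activators together made up 79.5% and 76.9% of the summed level per kilobase of the 10 genes in the mimic libraries, and 41.7% and 50.2% in the control libraries. The 5 Sin3-binding members made up 19.4% and 21.6% in the mimic libraries and 56.4% and 48% in the control libraries. The summed level was 280 and 223 CPM per kilobase with the mimic, against 122 and 140 with the control.

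These orders depend on the length used. The length of the longest coding transcript of GENCODE vM21 was also used, a choice made after the data were seen. With it Klf9 averaged 9.62 in the mimic and 24.2 CPM per kilobase in the control libraries, and Klf2 stood first in both groups. The Klf9 counts come from the deposited model of 3263 bases, while its transcript has 4486 bases and ends farther downstream. The lower level and lost first rank of Klf9 cannot be separated from this mismatch. With transcript length Klf3 averaged 6.85 in the mimic and 5.07 in the control libraries, more than with the gene model. That model has 11243 bases, against 5221 for the transcript. The share of the activators was 78.0% and 74.6% in the mimic libraries, and 42.2% and 50.3% in the control libraries.

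**Figure D4:**
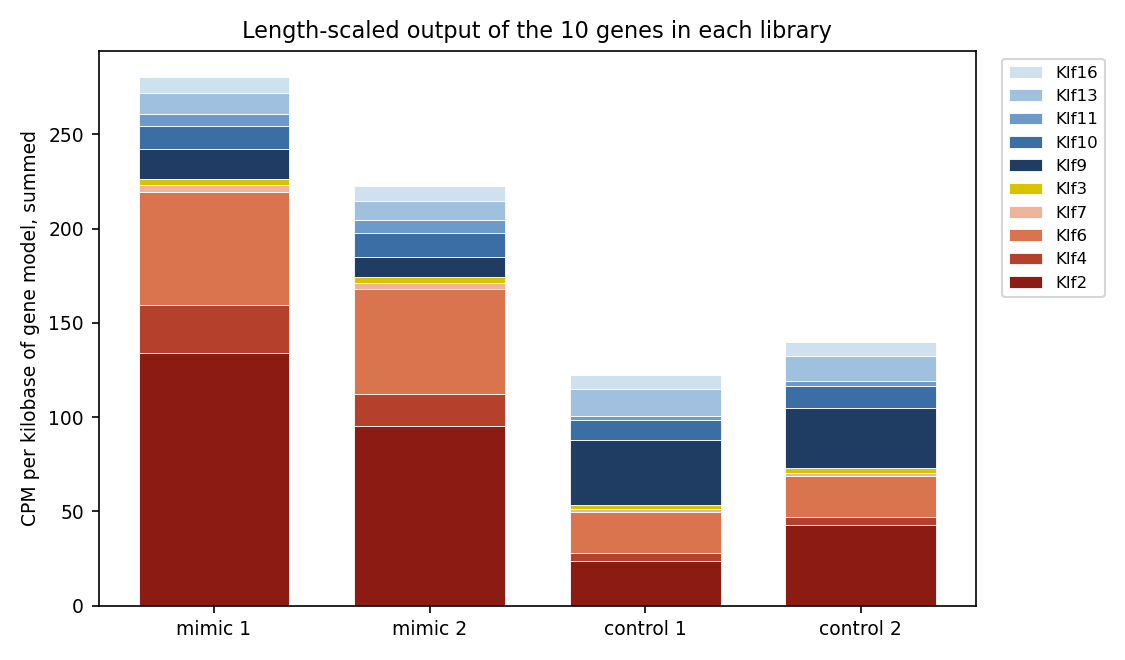
Stacked CPM per kilobase of gene model of the 10 genes in the 2 miR-204-3p mimic libraries and the 2 control mimic libraries. Red shades are the activators, yellow is Klf3 and blue shades are the Sin3-binding members. The activators make up 79.5% and 76.9% of the bars of the mimic libraries and 41.7% and 50.2% of those of the control libraries.

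The promoters of the members with the largest changes in each direction, Klf4, Klf2 and Klf9, are given from RefSeq (GRCm38.p6), from 250 bases before to 50 after the gene start. Capitals mark CACCC and GGGCGG on either strand, which are the elements that the family itself and its Sp relatives bind, and the MEF2 consensus. The MEF2 consensus, TGACGTCA (the cAMP response element) and TATAAA were added to the search after the sequences were seen.
Klf2 promoter, chr8:72318812-72319111, plus strand: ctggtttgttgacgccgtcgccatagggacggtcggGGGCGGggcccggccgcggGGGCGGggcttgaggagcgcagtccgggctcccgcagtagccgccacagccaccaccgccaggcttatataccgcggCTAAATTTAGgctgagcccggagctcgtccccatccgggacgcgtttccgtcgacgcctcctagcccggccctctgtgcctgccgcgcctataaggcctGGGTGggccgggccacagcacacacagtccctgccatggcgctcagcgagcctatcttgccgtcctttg
Klf4 promoter, chr4:55532426-55532725, minus strand: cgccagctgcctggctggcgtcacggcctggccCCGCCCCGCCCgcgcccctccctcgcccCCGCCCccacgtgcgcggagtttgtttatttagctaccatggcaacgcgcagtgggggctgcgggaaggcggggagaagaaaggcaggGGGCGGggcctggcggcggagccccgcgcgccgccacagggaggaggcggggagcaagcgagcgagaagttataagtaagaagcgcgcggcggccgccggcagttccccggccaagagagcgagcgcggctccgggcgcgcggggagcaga
Klf9 promoter, chr19:23140976-23141275, plus strand: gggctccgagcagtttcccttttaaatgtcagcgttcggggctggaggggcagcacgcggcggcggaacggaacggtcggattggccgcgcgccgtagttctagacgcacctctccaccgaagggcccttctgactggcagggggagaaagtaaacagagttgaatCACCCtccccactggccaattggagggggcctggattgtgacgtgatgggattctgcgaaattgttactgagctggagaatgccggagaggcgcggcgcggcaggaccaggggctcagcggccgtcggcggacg
Promoters were found for 8 of the 10 members, not for Klf10 and Klf16. GGGCGG stood in 7 of 8, all but Klf9, against 35.7% of 32851 mouse promoters of the same length. CACCC stood in 5 of 8, against 57.5% of all promoters. A CACCC and a GGGCGG match can share bases. The Klf3 promoter held the most, with 5 CACCC and 6 GGGCGG matches, and the Klf4 promoter held 4 GGGCGG and no CACCC matches. The GC content was 58.3% to 77.7%, above the median of all promoters, 52.7%. The shares over all promoters were not matched for GC content or expression. The MEF2 consensus stood in the Klf2 promoter alone among the 8, and in 3.19% of all promoters. TGACGTCA and TATAAA stood in none of the 8, against 1.79% and 13.6% of all promoters.

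AU-rich words in the 3′ UTR, which mark many short-lived mRNAs, were counted by gene, and longer UTRs have more room for them. All members but Klf2 (737 bases) and Klf4 (982 bases) had a 3′ UTR longer than the median of 1133 bases. Per kilobase, ATTTA ran from 0.58 (Klf13) to 2.87 (Klf7) matches, against 1.793 over all genes. ATTTA stood in the 3′ UTR of all 10 members and of 68.8% of the 11270 genes, and TATTTAT in 6 of 10 members and 29.2% of genes. The members with TATTTAT were Klf2, Klf6, Klf7, Klf10, Klf11 and Klf16, of which Klf10 and Klf16 did not pass the test. Klf3, Klf4, Klf9 and Klf13 held none. TATTTAT was densest in Klf2, at 1.36 matches per kilobase of 3′ UTR, but this was 1 match in 737 bases. The other members with TATTTAT had 0.16 (Klf7) to 0.67 (Klf10) matches per kilobase, against 0.283 over all genes.

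Of 7 further family genes in the table, Klf8 and Klf15 rose, Klf1 did not pass, and 4 were not tested. Klf8 and Klf15 passed the low-count filter only through the mimic libraries, so the direction of their calls was largely set by the filter. Klf8, a CtBP-binding relative of Klf3, had 122 and 135 counts in the mimic libraries and 5 and 12 counts in the control libraries, or 6.85 ± 0.72 against 0.599 ± 0.358 CPM (log2 fold change 3.5 ± 0.40, edgeR adjusted p = 3.8e-06). Without control replicate 2 its log2 fold change was 4.27. Klf15, which controls amino acid metabolism in liver and muscle, had 30 and 26 counts with the mimic and 0 and 2 with the control, a ratio of 21.2 with a 95% counting interval of 5.61 to 180 (edgeR adjusted p = 0.00036). Its control counts lay in 1 library, and its fitted log2 fold change of 4.27 became 7.69 without control replicate 2 and 3.31 without control replicate 1. Klf1, the erythroid factor, had 0.798 ± 0.0269 CPM with the mimic and 1.01 ± 0.429 CPM with the control (edgeR adjusted p = 0.58). Klf12 and Klf17 had at most 1 count in any library, and Klf5 and Klf14 had 0 in all 4.

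The Sp factors, which bind GC boxes that the Krüppel-like factors can also occupy, rose in 4 and fell in 1 of 5 tested cases, against 60.8% of all tested genes called in either direction. Sp3 averaged 58.1 ± 18.4 CPM with the mimic and 132 ± 8.27 CPM with the control, and fell by 1.19 ± 0.17 on the log2 scale (edgeR adjusted p = 4.3e-05). Sp2 averaged 33.9 ± 4.94 against 15.2 ± 2.75 CPM, Sp4 8.35 ± 0.0198 against 4.66 ± 1.06 CPM, and Sp1 126 ± 0.424 against 98.7 ± 17.8 CPM, mimic first in each case. Sp8, one of the higher genes, had 33 and 23 counts in the mimic libraries and 2 and 3 in the control libraries. It passed the low-count filter only through the mimic libraries, so the direction of its call was largely set by the filter. The call of Sp4 was lost without control replicate 2 (edgeR adjusted p = 0.079). The call of Sp1 was lost without control replicate 2 (adjusted p = 0.42), without mimic replicate 2 (adjusted p = 0.056), with gene-length offsets (adjusted p = 0.42) and with DESeq2 (adjusted p = 0.063). Sp7 and Sp9 were under the filter, and Sp5 and Sp6 had 0 counts in all 4 libraries.

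Counts in the lists from here to the targets of members compare with 31.1% of all tested genes called higher and 29.7% called lower. Named genes of these lists are those of lowest p in each direction. Of 4 coactivators of the family 3 rose and 1 did not pass (median log2 fold change 1.12, against 0.04 over all tested genes). The acetyltransferase genes Crebbp and Ep300 averaged 76.9 ± 0.813 and 127 ± 12.8 CPM in the mimic libraries, against 18.5 ± 2.11 and 42.5 ± 3.57 CPM in the control libraries. Kat2b, a further acetyltransferase, averaged 42.4 ± 2.93 CPM with the mimic and 26.9 ± 2.6 CPM with the control. Of 17 corepressor genes 2 rose, 6 fell and 9 did not pass (median 0.02). Sap30, Arid4a and Arid4b, which encode subunits of the Sin3 complex, fell by 1.88 ± 0.13, 0.99 ± 0.21 and 0.86 ± 0.20 on the log2 scale. Rbbp4, a histone-binding subunit, rose by 0.66 ± 0.14, and Hdac1 by 0.37 ± 0.14. The call of Hdac1 was lost with DESeq2 (adjusted p = 0.073), without control replicate 1 (edgeR adjusted p = 0.34) and without mimic replicate 2 (adjusted p = 0.11).

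Of 8 ubiquitin ligase genes known to act on Krüppel-like factor proteins, 2 rose, 3 fell and 3 did not pass (median −0.10, or 0.26 with library size alone). Smurf1, which targets Klf2, averaged 66.9 ± 4.21 CPM with the mimic and 25.7 ± 1.29 CPM with the control. Wwp1, another ligase of Klf2, averaged 29.7 ± 0.276 against 60.4 ± 11.0 CPM, and Fbxo32, which acts on Klf4, 4.63 ± 0.145 against 14.6 ± 5.1 CPM, mimic first. Siah1a, a ligase of Klf10, rose by 0.77 ± 0.17 on the log2 scale, and Itch, another ligase of Klf10, fell by 0.63 ± 0.12. Scaled by library size alone, Itch did not pass (log2 fold change −0.26, edgeR adjusted p = 0.074).

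The ERK5 kinase route, which acts on Klf2 and Klf4 through MEF2 factors, had 3 higher and 2 lower genes of 7 (median 0.19). The kinase genes Map3k2, Map3k3 and Map2k5 rose by 1.21 ± 0.19, 0.46 ± 0.12 and 0.46 ± 0.12 on the log2 scale. Mef2c, one of the factors at its end, averaged 15.6 ± 3.05 CPM in the mimic libraries and 160 ± 30.5 CPM in the control libraries, and fell by 3.36 ± 0.17 on the log2 scale (edgeR adjusted p = 1.3e-09). Mef2a fell by 0.46 ± 0.14, but did not pass when scaled by library size alone (log2 fold change −0.09, edgeR adjusted p = 0.59) or without control replicate 1 (adjusted p = 0.12). Klf2 and Klf4 were both higher, and whether MEF2 factors act on them in these cells was not tested. The MEF2 consensus in the Klf2 promoter was searched for only after the sequences were seen.

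The TGF-beta route, which induces Klf10 and Klf11, had 1 higher and 3 lower genes of 7 (median 0.19). The receptor genes Tgfbr2 and Tgfbr1 averaged 49.4 ± 6.36 and 50.6 ± 6.72 CPM with the mimic, against 286 ± 17.3 and 113 ± 6.22 CPM with the control. Smad3, a transducer of the pathway, fell by 1.49 ± 0.14 on the log2 scale and Smad2 rose by 0.43 ± 0.14. The call of Smad2 was lost without control replicate 1 (edgeR adjusted p = 0.15) and without mimic replicate 2 (adjusted p = 0.087). Klf11 was higher in the same libraries in which both receptor genes were lower.

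Of 5 tested genes of the glucocorticoid receptor and its targets, 1 rose, 3 fell and 1 did not pass (median −0.59). The receptor gene Nr3c1 averaged 23.6 ± 3.27 CPM with the mimic and 55.5 ± 10.6 CPM with the control. Its targets Fkbp5 and Tsc22d3 averaged 44.7 ± 3.77 and 99.3 ± 2.33 CPM with the mimic, against 110 ± 16.4 and 150 ± 12.1 CPM with the control. The phosphatase gene Dusp1, which other signals induce as well, rose by 1.19 ± 0.14 on the log2 scale. Tsc22d3 did not pass when scaled by library size alone (log2 fold change −0.23, edgeR adjusted p = 0.12). Klf9, which this receptor also induces, was lower.

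Of 14 genes known as targets of individual members, 7 were tested, of which 1 rose, 3 fell and 3 did not pass (median −0.24, or 0.12 with library size alone). S1pr1, the sphingosine phosphate receptor gene that Klf2 activates in T cells, averaged 20.6 ± 1.41 CPM with the mimic and 202 ± 24.8 CPM with the control. It fell by 3.29 ± 0.15 on the log2 scale (edgeR adjusted p = 3.1e-10), while Klf2 was higher. Cd14, the lipopolysaccharide coreceptor gene that Klf4 activates in human monocytic cells, averaged 495 ± 23.0 against 1432 ± 196 CPM, mimic first, while Klf4 was higher. Ccl5, a target of Klf13 in T cells, averaged 11.9 ± 0.396 against 3.72 ± 0.0346 CPM, while Klf13 was lower. Nos3, an endothelial target of Klf2, had 2 counts over the mimic libraries and 23 over the control libraries. This is a ratio of 0.066 with a 95% counting interval of 0.00754 to 0.267. Nos3 passed the low-count filter only through the control libraries, so the direction of its call was largely set by the filter. Of the named genes around the family that passed the test, Arid4b, Hdac1, Rbbp4, Kat2b, Itch, Siah1a, Map2k5, Map3k3, Mef2a, Smad2, Sp1, Sp4 and Tsc22d3 did not pass against a minimum change of 1.5-fold.

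**Figure D5:**
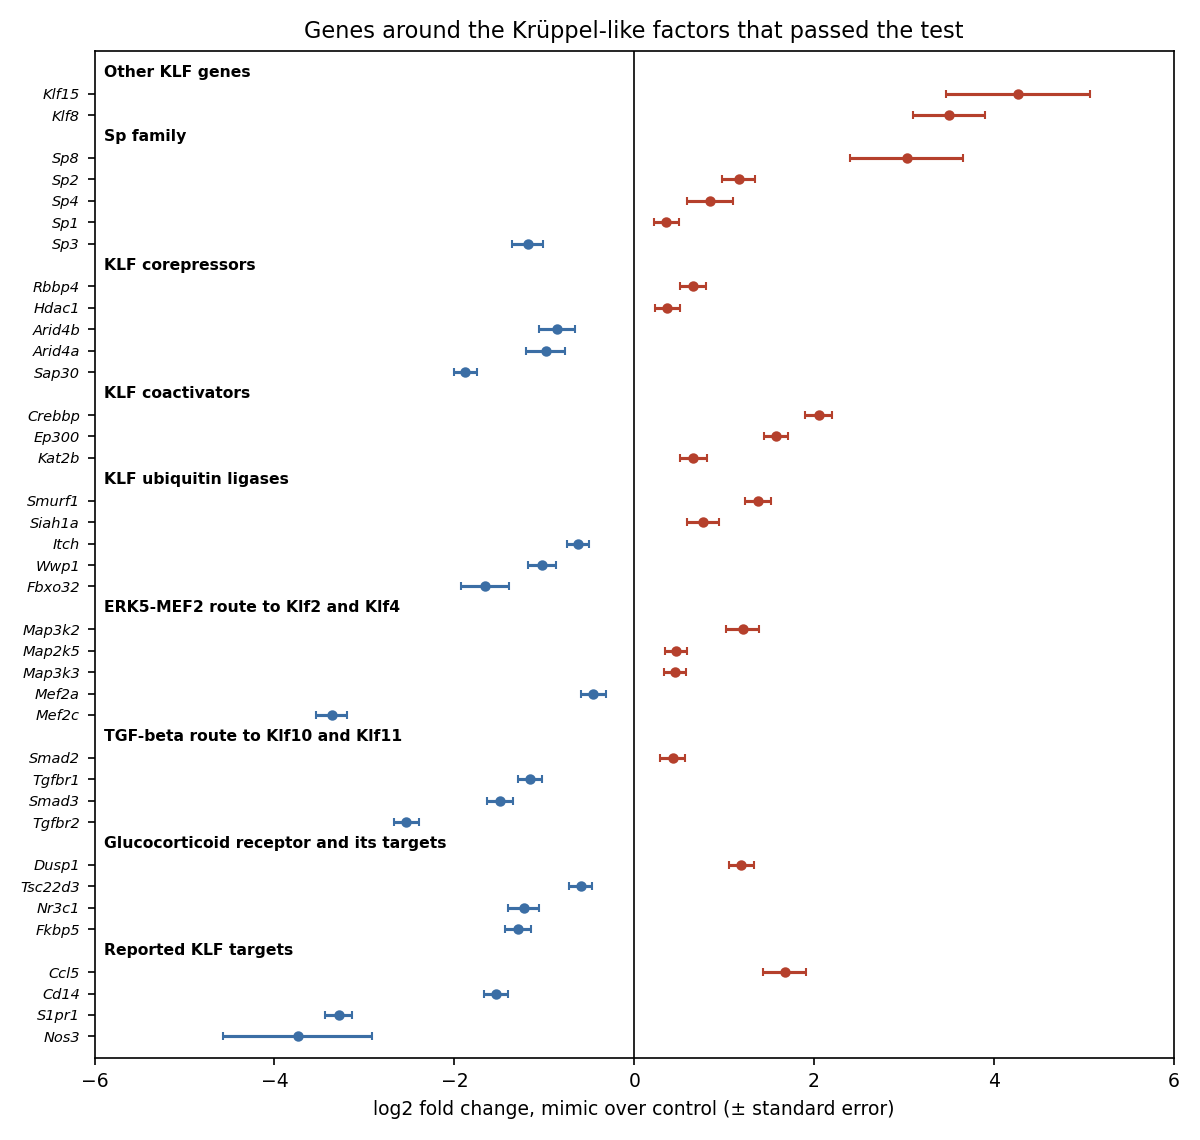
Log2 fold change of miR-204-3p mimic over control mimic, ± standard error, for named genes past the threshold in each list around the family. Red is higher and blue is lower. S1pr1 at −3.29 and Mef2c at −3.36 lie far to the left, while Klf2 and Klf4, to which these lists relate them, were higher.

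Markers of macrophages and of other cells moved with these results. The 7 macrophage markers summed to 2997 and 2976 CPM with the mimic, against 15966 and 17566 CPM with the control (1 higher, 6 lower), and none was at 0. Most of each sum was Lyz2, at 2126 ± 23.3 CPM with the mimic and 14545 ± 1068 CPM with the control. The 6 lower markers fell by 2.09-fold (Cd68) to 14.6-fold (Csf1r), and Fcgr1 rose 4.19-fold. The 5 endothelial markers, of cells in which Klf2 and Klf4 are prominent, summed to 61.4 and 68.9 CPM against 20.1 and 15.8 CPM, mimic first. Nearly all of this was Vwf (2 higher in all), and Cdh5, Kdr, Pecam1 and Tek were under 1 CPM in all 4 libraries.

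The 6 B cell markers summed to 3.38 and 3.71 CPM with the mimic and to 251 and 227 CPM with the control (4 lower). Most of each sum was Ighm, and Ms4a1 had 0 counts throughout. Of 7 T and NK cell markers Lck rose, 5 had 0 counts, among them Cd3e and Trac, and the sums were 28.2 and 27.2 CPM against 5.06 and 4.4 CPM, mimic first. The 8 neutrophil markers summed to 15.8 and 11.4 CPM with the mimic and 39.9 and 66.3 CPM with the control (2 lower), with Ly6g at 0. Most of each neutrophil sum was Csf3r. The 7 dendritic cell markers summed to 34.8 and 33.6 CPM with the mimic and 165 and 138 CPM with the control (3 lower).

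The 6 mast cell and basophil markers summed to 2.18 and 2.23 CPM with the mimic and 0.139 and 0.568 CPM with the control (1 higher), with Fcer1a, Mcpt4 and Ms4a2 at 0. The 5 erythroid markers summed to 163 and 119 CPM with the mimic and 29.6 and 36.5 CPM with the control, nearly all of it Tfrc (1 higher). The 5 fibroblast markers summed to at most 0.436 CPM in any library, with Col3a1 at 0. Low-count markers called in these lists, such as Tek, Hdc, Siglech and Elane, passed the low-count filter only through the group where they were high. The part of other cells in the levels of Klf2, Klf9 and the other members was not tested.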

How the data were processed

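The authors deposited 1 table of raw counts, whole numbers per gene in each of 4 libraries, with gene model lengths and coordinates, per the file headers. Libraries were made from total RNA with a NEBNext Ultra kit, per the labels' protocols. HISAT2 and mm10 are named in the submitters' processing notes, while the counting program, its strand setting and all versions are not given in the sources used here. No row lacked a gene identifier. Of 54532 identifiers, 54409 were in GENCODE vM21 (GRCm38), and 98.3% of these, and 9 of the 10 members, had the same start and end. Klf9 ends farther downstream in GENCODE.

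Differences were fitted on all genes with edgeR 4.0.16 under R 4.3.3, by its two-sided quasi-likelihood test (glmQLFit, then glmQLFTest), with TMM factors, filterByExpr by group, the group as the sole term and Benjamini-Hochberg adjustment. Standard errors were derived from the F statistic. DESeq2 1.42.0 and 10 further settings served as alternatives. The procedure was checked on simulated counts in which 200 genes changed, as many up as down, against 8022 genes called in the data. The simulation held no shift in scaling between groups, so it could not check the TMM factors. Named genes were all members, all family and Sp genes, and up to 3 genes of lowest p per direction from each other list. Members and lists were chosen with earlier results of these data known. Replicates shared only a number: deviations from the group means of same-numbered libraries correlated at 0.024 across genes. Libraries of a group differed beyond sampling noise (chi-square per degree of freedom 16.6 and 11.3, mimic and control). Intervals of ratios cover counting error only, since PCR copies are not independent molecules.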

Additional observations from a re-analysis of the deposited data

How the results depend on the processing

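For the 10 members, 99 of 110 log2 fold changes over 11 alternative settings kept their direction and side of the threshold, 9 lost the call (Klf3 and Klf13) and 2 gained it (Klf10 and Klf16, library size alone), and none changed sign. The number of lower members was 1 instead of 2 with library size alone and against a 1.5-fold minimum, and 1 to 2 without single libraries, since the call of Klf13 was lost. Against a 1.5-fold minimum 4470 genes and 24 genes of the lists around the family passed, instead of 8022 and 40, as a stricter hypothesis was tested. Klf1, which never passed, had a log2 fold change of 0.02 with library size alone and −0.73 to 0.15 without single libraries, instead of −0.34, and the cause was not tested. With the replicate block 8 members and 8070 genes passed, and no member's call changed. With 2 libraries a group, changes under 1.5-fold such as those of Klf3, Klf10, Klf13 and Klf16 are near the limit of what these data resolve.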
